A study of Mus musculus with 6 samples.

Results

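Semaphorins are membrane-bound or secreted guidance proteins, and plexins are their main receptors, with neuropilins as co-receptors. The 10 genes described here are 5 semaphorin genes (Sema4a, Sema4b, Sema4d, Sema6d and Sema7a), the plexin genes Plxna1 and Plxnd1, the neuropilin gene Nrp1, the plexin-domain gene Plxdc2 and Dscam, which encodes an adhesion and guidance receptor of the immunoglobulin superfamily. They were taken by symbol from 19937 genes measured on Affymetrix arrays, each represented by its brightest probe set. All values are log2 expression levels as deposited, so 1 unit is a doubling.

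The RNA came from splenic plasmacytoid dendritic cells (pDCs), the dendritic cells known for secreting type I interferon, collected as B220+ SiglecH+ cells from mice. The tested samples were 3 arrays titled IRF8 KO pDC and the others 3 arrays titled IRF8 WT pDC. All 6 RNAs were amplified with NuGen PICO SL and labelled with biotin. The labels used here name no strain, sex, age, Cre driver or altered part of Irf8, and do not say whether mice were pooled. The replicate numbers are those of the sample titles, and nothing ties each sample to a mouse of its own, so errors and p-values cover the spread among the arrays, part of which may be technical.

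In the nervous system semaphorin signals steer growing axons, largely by changing the cytoskeleton through small GTPases that bind the plexins' inner domains. In the immune system the same proteins act between cells. Sema4D (CD100) binds CD72 on B cells and plexin-B1 elsewhere, Sema4A co-stimulates T cells, Sema6D binds plexin-A1, and Sema7A binds an integrin and plexin-C1. Neuropilin-1, a co-receptor of class 3 semaphorins and of VEGF, is also known as BDCA-4, a surface marker of human pDCs.

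IRF8 is a transcription factor, so the promoters of the members with the largest differences are shown, with every GAAA or TTTC, the letters that IRF binding motifs repeat, in capitals. Sequences are the 250 bases before a RefSeq transcription start of GRCm38.p6, written 5′ to 3′ on the strand of the gene. Sema6d has 2 starts in the table.
Sema6d first start (chr2:124089719-124089968, plus strand): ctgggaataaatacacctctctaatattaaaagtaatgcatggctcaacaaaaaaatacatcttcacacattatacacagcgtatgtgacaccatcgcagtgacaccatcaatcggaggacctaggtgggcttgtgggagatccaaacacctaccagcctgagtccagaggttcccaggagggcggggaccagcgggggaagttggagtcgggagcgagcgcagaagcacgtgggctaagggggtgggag
Sema6d second start (chr2:124653331-124653580, plus strand): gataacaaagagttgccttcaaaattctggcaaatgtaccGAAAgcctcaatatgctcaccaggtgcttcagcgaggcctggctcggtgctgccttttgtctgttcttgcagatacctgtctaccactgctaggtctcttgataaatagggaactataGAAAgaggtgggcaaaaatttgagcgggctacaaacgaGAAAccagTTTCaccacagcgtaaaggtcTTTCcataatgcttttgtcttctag
Dscam (chr16:97170736-97170985, minus strand): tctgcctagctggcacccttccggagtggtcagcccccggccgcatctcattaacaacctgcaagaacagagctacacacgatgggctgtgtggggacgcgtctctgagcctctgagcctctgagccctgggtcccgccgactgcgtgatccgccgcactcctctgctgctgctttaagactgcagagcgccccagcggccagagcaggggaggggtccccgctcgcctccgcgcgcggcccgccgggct
Nrp1 (chr8:128358823-128359072, plus strand): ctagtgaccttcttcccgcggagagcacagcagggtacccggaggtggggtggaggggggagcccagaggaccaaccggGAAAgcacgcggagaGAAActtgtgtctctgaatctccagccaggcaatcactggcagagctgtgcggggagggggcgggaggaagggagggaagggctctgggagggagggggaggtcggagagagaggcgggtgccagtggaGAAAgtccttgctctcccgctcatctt

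The first Sema6d promoter and the Dscam promoter held 0 such runs, the second Sema6d promoter held 5 and the Nrp1 promoter 3. Of 32851 mouse windows of this length, 86.4% held at least 1, 16.8% held 5 or more, and the median was 2. The longer motifs GAAANNGAAA (the core of the interferon-stimulated response element) and GGAANNGAAA (the ETS-IRF composite element), which can overlap each other, were searched on both strands in 300 bases, 250 before and 50 after each start. Among all windows 3.44% held GAAANNGAAA and 2.72% held GGAANNGAAA. Of the 10 genes, 8 matched the table with 15 windows in all, and 0 of the 15 held either motif. Plxna1 and Plxdc2 were not matched. These counts describe letters in these windows only.

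The array medians lay between 5.53 and 5.56, and the first principal component, with 52.8% of the variance, separated the genotypes. Irf8 itself was not lower in the KO arrays, at 10.15, 10.49 and 10.79, against 10.21, 9.97 and 10.24 in the WT arrays (limma adjusted p = 0.425). The altered part of the gene is not known here, so this probe set does not check the labels, and every direction below rests on them. All 15 measured pDC markers lay at or above the 82.4th percentile of gene levels in KO and the 92.9th in WT. Of the 15, 0 rose and 4 fell in KO by limma (Ccr9, Pacsin1, Tlr7 and Smim5), with a median difference of -0.35. The values were apart with KO lower in 8 and with KO higher in 3 (Ly6d, Bcl11a and Atp1b1). Among all genes 2.3% rose and 2.08% fell, 11.7% were apart with KO lower and 8.71% with KO higher. Neutrophil genes stood out in KO replicate 1 and macrophage genes in WT replicates 2 and 3, and their values are given further below. The summed levels of the pDC markers did not overlap between the genotypes, at 158.5 to 161.1 in KO and 162.6 to 164.9 in WT. Those of the macrophage genes, of plasma cell, cDC1 and cDC2 markers, and of the B cell markers given beside Cd72 did not overlap either. The same held for the cell cycle genes given below. Plasma cell markers summed to 51.3 to 56.4 in KO and 42.6 to 48.7 in WT, with 2 of 7 higher (Prdm1 and Sdc1) and 0 lower past the threshold. Markers of cDC1, a conventional dendritic cell type, summed to 47.2 to 48.3 in KO and 53.3 to 53.6 in WT. Past the threshold, 2 of 8 were higher (Tlr3 at 0.87, Cd8a at 1.51) and 2 lower (Clec9a at -6.32, Cadm1 at -1.71). The median difference of the 8 was -0.04. Those of cDC2, another such type, summed to 54.9 to 57.5 in KO and 58.6 to 61.0 in WT. Here 2 of 8 were higher (Itgam at 1.89, Itgax at 1.78) and 2 lower (Cd209a at -3.73, Clec10a at -2.62). Their median difference was -0.12. The part of these cell types in the members' values was not tested. In sorted bulk cells, fewer cells of a type and less RNA per cell cannot be told apart.

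The 10 genes were selected on their family and on KO minus WT differences of these same arrays, and Sema6d, Plxdc2 and Dscam were among the largest changes of the whole array. Their levels and differences are therefore a description, with no p-values, and counts of those past the threshold say only where they fall in the fit. In 4 of the 10 genes the limma fit over all genes passed an adjusted p of 0.05, Sema6d and Dscam higher in KO and Nrp1 and Plxdc2 lower. Over all genes 4.38% passed, 2.3% higher in KO and 2.08% lower. The KO and WT values did not overlap in 8 of the 10, 4 with KO above WT and 4 with KO below. Over all genes 20.4% did so, 8.71% with KO above and 11.7% with KO below. Nothing is read from these shares because the choice used this contrast. The median difference of the 10 genes was -0.09, beside -0.04 over all genes.

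**Figure D1:**
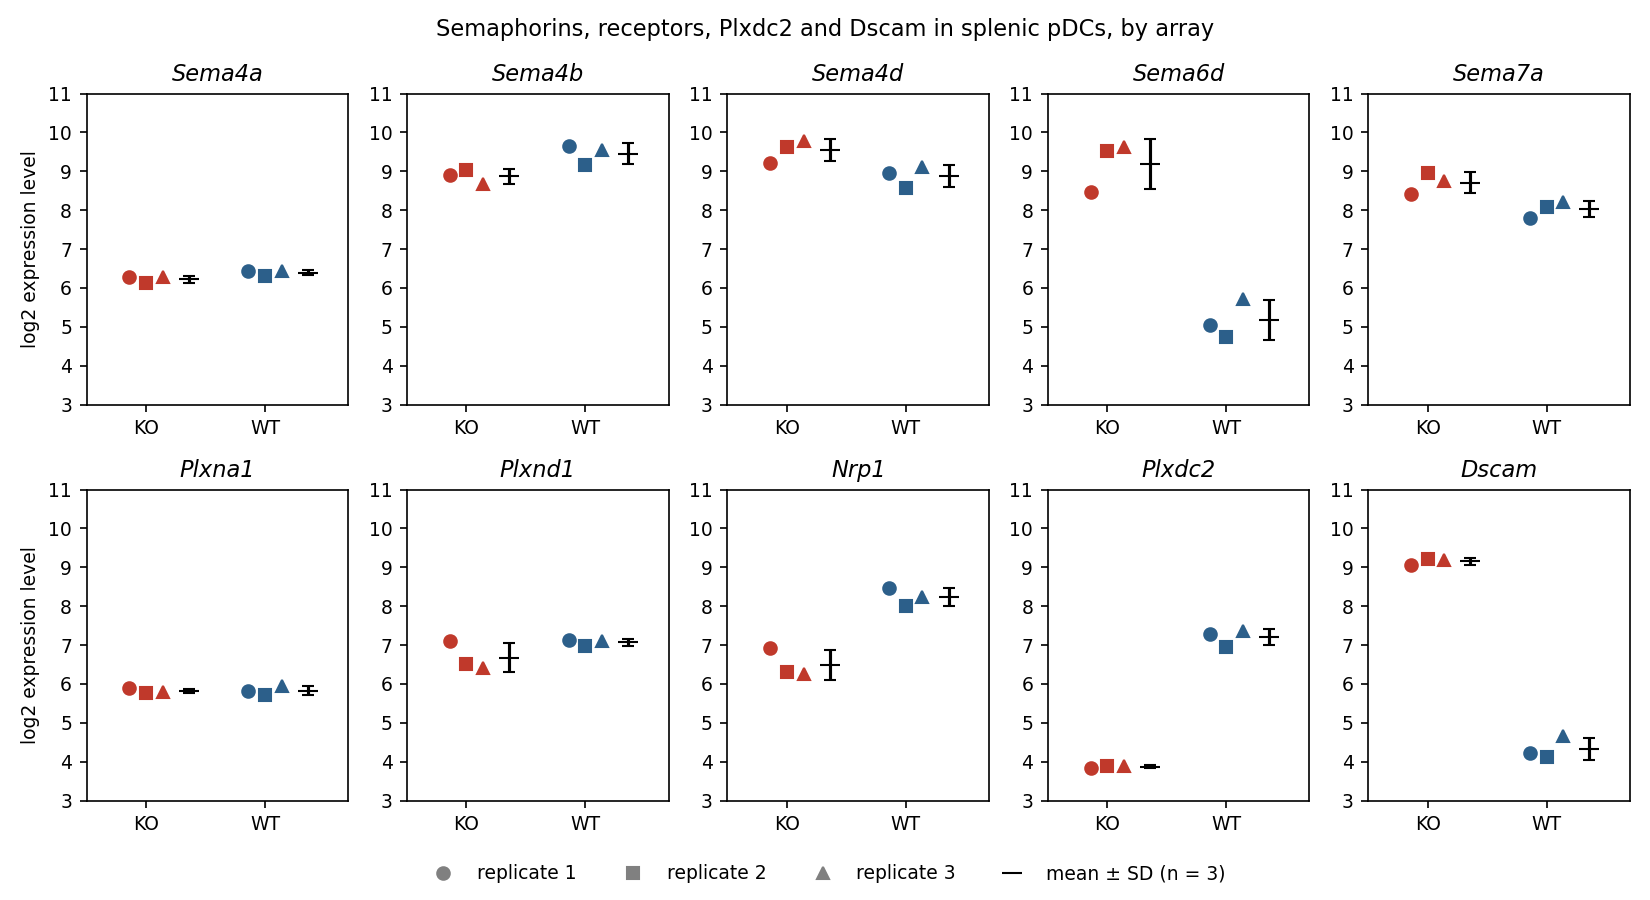
Log2 expression level (vertical axis) of each of the 10 genes in the 3 KO arrays (red, left) and 3 WT arrays (blue, right), with the replicate number as the symbol and the mean ± SD beside each group (n = 3). Sema6d and Dscam lie far higher in KO and Nrp1 and Plxdc2 far lower, Plxna1 and Plxnd1 overlap, and the other 4 are apart by small gaps.

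Among the semaphorin ligands, Sema6d differed most. The gene lies at chr2:124089943-124667789, and its product is a transmembrane class 6 semaphorin that binds plexin-A1. It measured 8.46, 9.53 and 9.61 in KO replicates 1, 2 and 3, against 5.05, 4.74 and 5.73 in WT replicates 1, 2 and 3. The lowest KO array was 2.73 log2 units above the highest WT array, and KO replicate 1 lay below the other KO arrays by 1.11. The group means were 9.20 ± 0.64 in KO and 5.17 ± 0.51 in WT (SD, n = 3 each), a difference of 4.03 (SE 0.36), or 16.3-fold. The WT mean lay at the 38.1th percentile of gene levels in WT, below the median gene mean of 5.69, so the fold may understate the change. Both groups varied more in Sema6d than in Dscam or Plxdc2, with a KO range of 1.15 and a WT range of 0.99. Without KO replicate 1 the difference was 4.40.

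Sema4d and Sema7a were higher in every KO array than in any WT array, by much smaller amounts, and neither passed the threshold over all genes. Sema4d encodes CD100, a transmembrane ligand that is also shed from the surface. It measured 9.22, 9.63 and 9.79 in KO, against 8.97, 8.57 and 9.10 in WT, a difference of 0.67 (SE 0.19). The gap between the groups was 0.12, smaller than the spread inside either one. Sema4d is the only one of the 10 genes with a second probe set, and that one did not show the difference: it measured 6.85, 7.40 and 7.39 in KO, against 6.76, 8.05 and 7.0 in WT, a difference of -0.06 (SE 0.33). The second probe set shares no RefSeq transcript with Sema4d, and the mean of both gave a difference of 0.31.

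Sema7a encodes a semaphorin held to the membrane by a lipid anchor. It measured 8.41, 8.95 and 8.76 in KO, against 7.80, 8.08 and 8.21 in WT, a difference of 0.68 (SE 0.17). The groups were apart by 0.21, with both arrays numbered 1 the lowest of their genotype.

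Sema4b and Sema4a, further transmembrane class 4 semaphorins, were lower in every KO array than in any WT array without passing the threshold. Sema4b measured 8.91, 9.03 and 8.66 in KO, against 9.66, 9.15 and 9.54 in WT, a difference of -0.58 (SE 0.17). Its gap of 0.12 was set by KO replicate 2 and WT replicate 2. Sema4a measured 6.28, 6.12 and 6.28 in KO, against 6.45, 6.31 and 6.43 in WT, a difference of -0.17 (SE 0.11) with a gap of 0.03. Among the class 4 semaphorins described here, Sema4d thus had higher and Sema4a and Sema4b lower KO values, with none past the threshold.

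Among the receptors, Nrp1 was lower in KO. The gene lies at chr8:128358591-128505476. It measured 6.93, 6.30 and 6.25 in KO replicates 1, 2 and 3, against 8.47, 7.99 and 8.24 in WT replicates 1, 2 and 3. The highest KO array was 1.06 below the lowest WT array. The means were 6.49 ± 0.38 in KO and 8.23 ± 0.24 in WT (SD, n = 3 each), a difference of -1.74 (SE 0.21), so that Nrp1 was 3.34-fold lower in KO.

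The plexin genes differed less than Nrp1. Plxnd1, the receptor of Sema3E and a partner of neuropilins, measured 7.11, 6.51 and 6.41 in KO, against 7.14, 6.97 and 7.11 in WT, a difference of -0.40 (SE 0.19). KO replicate 1 lay inside the WT range, while KO replicates 2 and 3 lay below it, and without KO replicate 1 the difference was -0.61 and passed the threshold. Plxna1, the plexin that binds Sema6D, measured 5.89, 5.78 and 5.8 in KO, against 5.82, 5.73 and 5.94 in WT. Its groups overlapped fully, with a difference of -0.01 (SE 0.11), so the level of this Sema6D receptor differed by less than its error.

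Plxdc2 encodes a membrane protein with a plexin-like domain, first described on tumour endothelium and reported to bind the secreted factor PEDF. The gene lies at chr2:16355740-16761132. It measured 3.84, 3.89 and 3.90 in KO, against 7.30, 6.96 and 7.35 in WT. The means were 3.88 ± 0.03 in KO and 7.20 ± 0.21 in WT (SD, n = 3 each), a difference of -3.33 (SE 0.13), and the groups were apart by 3.06. The KO level lay below 4.58, the 25th percentile of gene means, so the log2 difference may understate the change and no fold is given.

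Dscam, known for letting neurites of one neuron recognise each other and as a netrin receptor, differed in the opposite direction. The gene lies at chr16:96587452-97171113. It measured 9.05, 9.21 and 9.19 in KO, against 4.23, 4.12 and 4.66 in WT. The means were 9.15 ± 0.09 in KO and 4.34 ± 0.29 in WT (SD, n = 3 each), a difference of 4.82 (SE 0.16), and the gap between the groups was 4.39. Here the WT level lay below the 25th percentile of gene means, so no fold is given. The KO values of Dscam were close together, with a range of 0.16, and KO replicate 1 did not stand apart as it did for Sema6d.

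**Figure D2:**
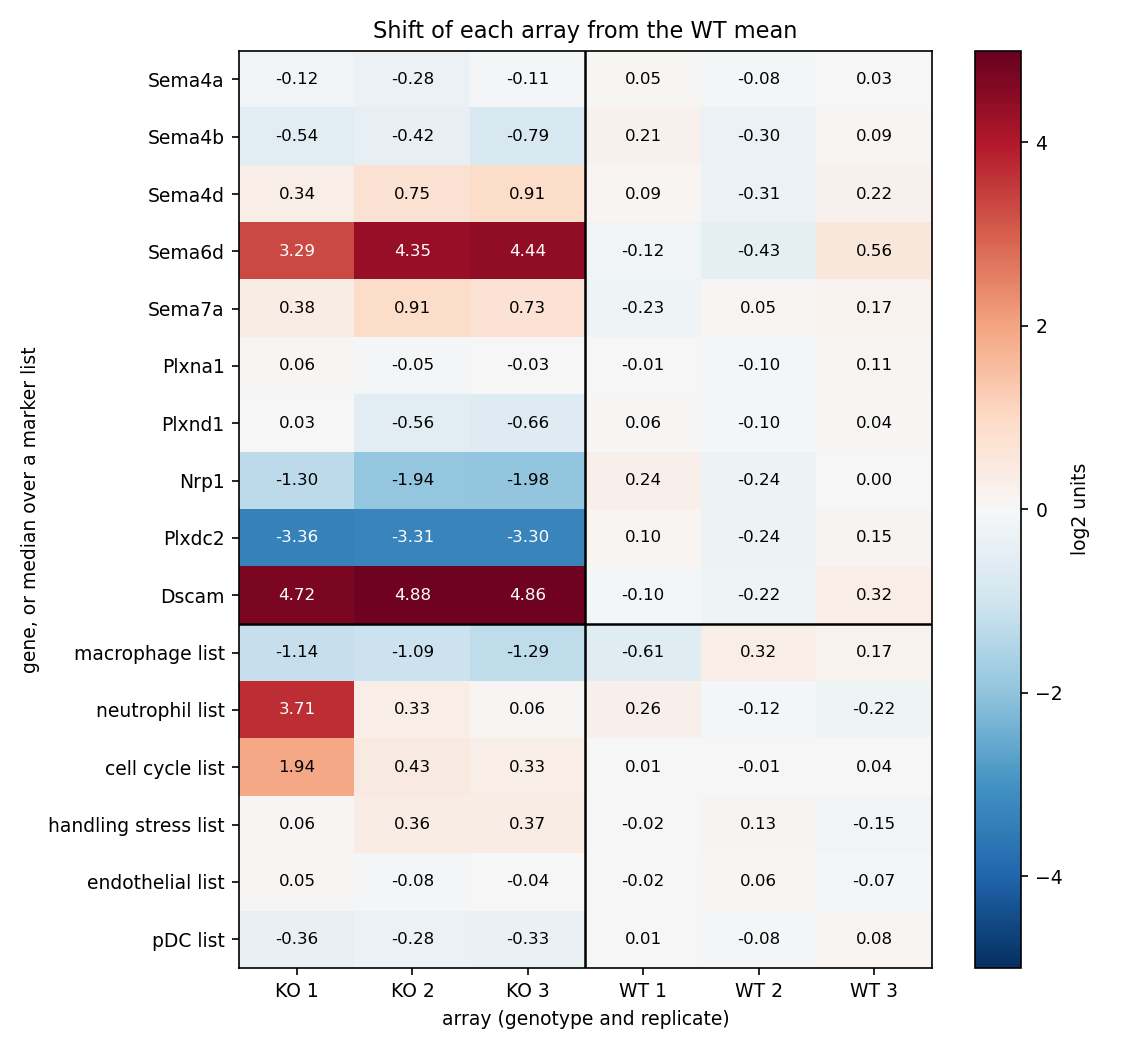
Shift of each array (columns, KO left of WT) from the WT mean, in log2 units, for the 10 genes (upper rows) and for the median gene of 6 marker lists (lower rows). The neutrophil list shifts by 3.71 in KO replicate 1 against 0.06 and 0.33 in the other KO arrays, and the macrophage list by -0.61 in WT replicate 1, while Plxdc2 and Dscam keep nearly the same shift in all 3 KO arrays.

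KO replicate 1 carried a higher signal of neutrophil and cell cycle genes than the other arrays. Over 12 neutrophil genes, none of which passed the threshold, the summed log2 level was 104.6, 70.0 and 63.6 across KO replicates 1, 2 and 3, against 69.2, 58.9 and 55.7 across WT replicates 1, 2 and 3. The cell cycle list shifted from the WT mean by 1.94, 0.43 and 0.33 in KO replicates 1, 2 and 3, with 1 of 23 genes past the threshold. Its summed level was higher in all KO arrays, at 181.22, 146.95 and 144.90, against 133.60, 133.89 and 135.45 in WT. In 16 of the 23 every KO value lay above every WT value, and in 0 below, beside 8.71% and 11.7% of all genes. In KO replicate 1 Sema6d, Sema4d, Sema7a, Dscam and Plxdc2 were the lowest of the KO arrays and Nrp1, Plxnd1 and Plxna1 the highest. For Plxdc2 this small step, -0.05 from the mean of KO replicates 2 and 3, led away from the WT values. Without KO replicate 1, 7 of the 10 genes passed the threshold, Sema4d, Sema7a and Plxnd1 in addition, and over all genes 1499 did in place of 874. The part of these marker genes in the members' values was not tested.

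Of 12 macrophage genes measured, 2 passed the threshold, both lower in KO (C1qb and Cd68), and 10 did not. Over all genes 2.08% fell. The KO and WT values were apart in 6, all with KO lower, and overlapped in the others. Over all genes 11.7% were apart with KO lower. The summed level ran from 60.9 to 63.0 in KO, against 65.2, 79.6 and 79.3 in WT replicates 1, 2 and 3, with Cd5l and Mertk below the 25th percentile in every array. The median shift of the list from the WT mean was -0.61 in WT replicate 1, against -1.29 to -1.09 in KO. The 2 genes past the threshold were not at KO levels in that array. Cd68 was 11.36 there, against 11.30 in both other WT arrays and 9.59 to 9.96 in KO. C1qb was 5.66, against 6.99 and 6.57 in WT replicates 2 and 3 and 4.90 to 4.98 in KO. In WT replicate 1 Nrp1 was 8.47, the highest of the WT values, and Plxdc2 was 7.30, between the other WT values. The part of macrophage genes in the Nrp1 and Plxdc2 differences was not tested.

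Endothelial cells are known for Nrp1, Plxnd1 and Sema6d, and the summed level of their marker genes overlapped between the genotypes. The summed level of 12 endothelial genes ran from 65.6 to 66.8 in KO and from 66.3 to 67.3 in WT. Tek, Emcn and Sox17 lay below the 25th percentile in every array. Of the 12, Erg was higher and Kdr lower in KO past the threshold, beside 2.3% and 2.08% of all genes. These opposite differences of Erg and Kdr partly offset each other in the sum. The part of endothelial genes in the Nrp1, Plxnd1 and Sema6d values was not tested.

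The 10 genes were taken out of their families partly for how they differed, so a low count among the genes left is partly fixed by that choice. All 20 semaphorin, 11 plexin and neuropilin and 6 plexin-domain, DSCAM and sidekick genes of the mouse lists were measured, and 27 of the 37 are not among the 10 described. By limma over all genes 0 of these 27 were higher and 1 lower in KO, with 1 at an unadjusted p under 0.05, beside 4.38% of all genes past the threshold. The median difference of the 27 was -0.04, the same as over all genes. The other 26 differed by -0.24 to 0.30.

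The gene that fell was Plxdc1, the closest relative of Plxdc2. It measured 7.32, 7.20 and 6.97 in KO, against 8.95, 8.11 and 8.67 in WT, a difference of -1.42 (SE 0.22, limma adjusted p = 0.0116). All KO arrays lay below all WT arrays. The call was lost without KO replicate 2, KO replicate 3 or WT replicate 3 (highest adjusted p 0.0574). Both plexin-domain genes were thus lower in KO, while Dscaml1, the relative of Dscam, did not pass.

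Next in size, none past the threshold, were Sema4c at 0.30 (limma adjusted p = 0.652), Plxnc1, the receptor of Sema7A, at -0.24 (0.515), and Nrp2, the paralog of Nrp1, at -0.20 (0.474). Nrp2 measured 4.94, 4.70 and 4.96 in KO, against 5.08, 5.12 and 5.0 in WT, so its groups were apart by a small step. Sema6a, a relative of Sema6d, differed by -0.20 (0.483) and Sdk2 by 0.12 (0.702). Apart from Sema6d, Nrp1, Plxdc2, Plxdc1 and Dscam, no gene of the 3 families differed by more than the 0.68 of Sema7a.

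**Figure D3:**
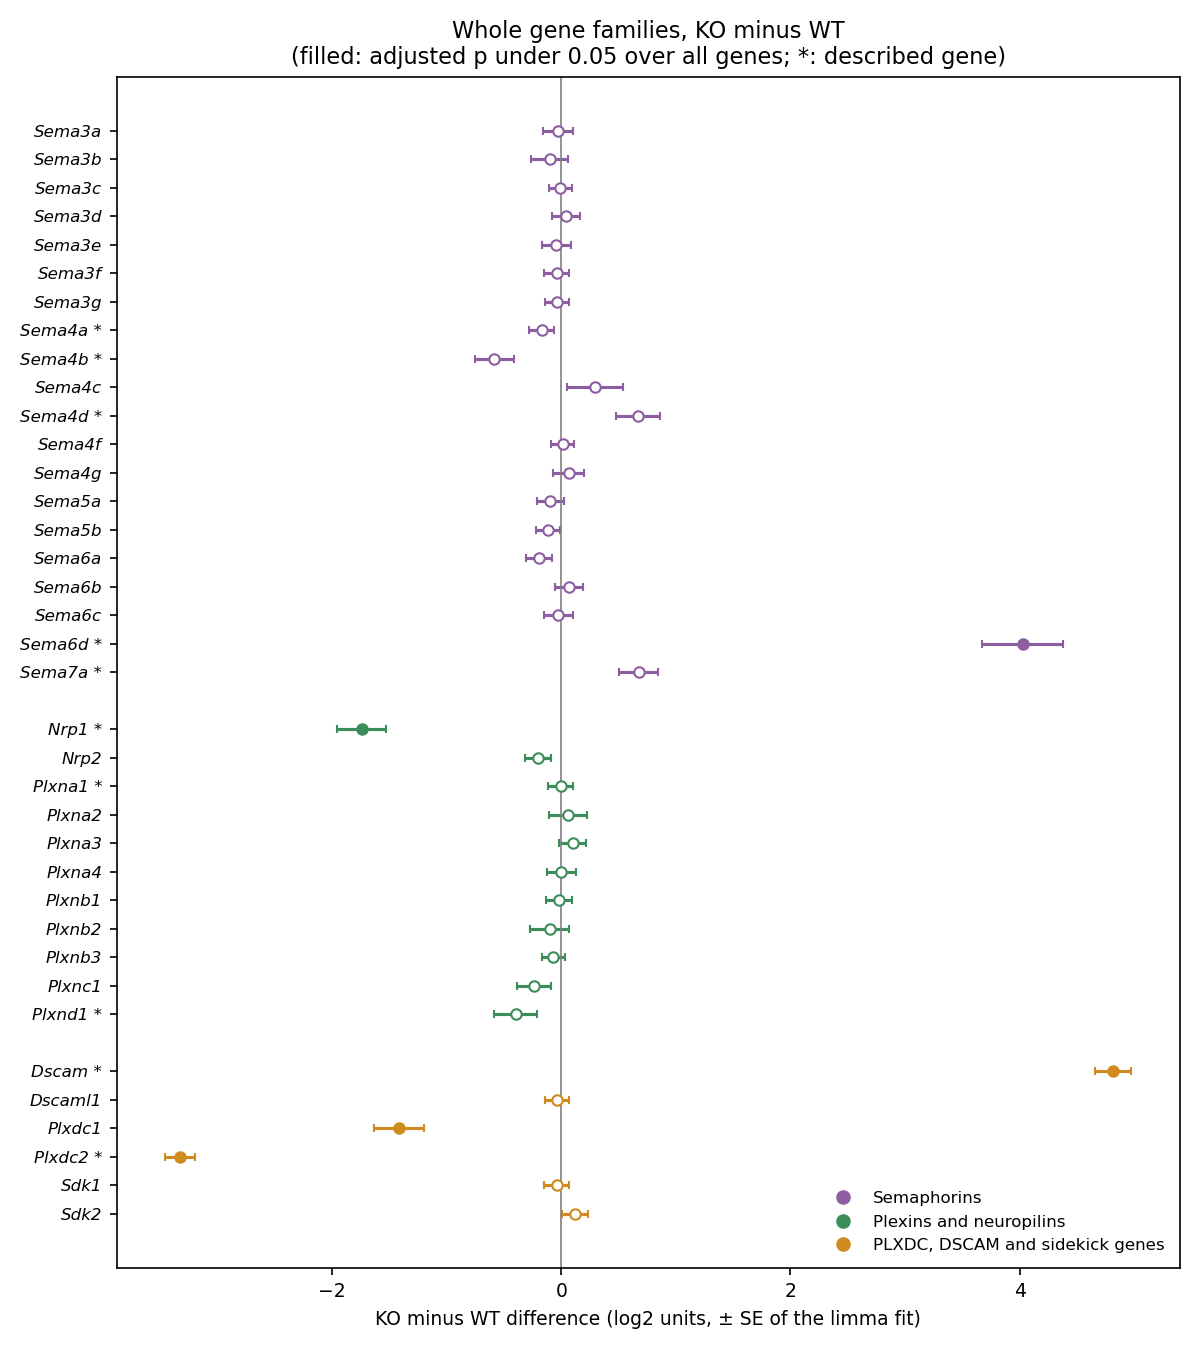
KO minus WT difference in log2 units (horizontal axis, with the SE of the limma fit) for all 37 measured genes of the semaphorin, plexin and neuropilin, and plexin-domain, DSCAM and sidekick families. Filled points passed an adjusted p of 0.05 over all genes and stars mark the 10 described genes. Most points lie near 0, with Sema6d and Dscam to the right and Nrp1, Plxdc1 and Plxdc2 to the left.

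Of 12 measured receptors of semaphorins outside the plexin family, 1 rose and 2 fell by limma over all genes, and 9 did not pass (median -0.09). Over all genes 2.3% rose and 2.08% fell. Cd72, the receptor of Sema4D on B cells, rose in KO with 9.38, 9.56 and 9.80, against 8.91, 8.66 and 8.63 in WT (difference 0.85, SE 0.15, adjusted p = 0.0185). Its ligand gene Sema4d was higher in the same 3 arrays. This call was lost without KO replicate 2 or 3 or WT replicate 2 or 3 (highest adjusted p 0.0791). The summed level of 8 B cell markers, of which 1 rose, ran from 43.2 to 44.3 in KO and from 40.4 to 41.7 in WT, with Ms4a1 and Cr2 below the 25th percentile of gene means in every array, and the part of B cell genes in the Cd72 value was not tested.

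Timd2, which encodes TIM-2, a receptor of Sema4A, fell. It measured 4.80, 4.43 and 4.71 in KO, against 5.69, 5.52 and 5.92 in WT (difference -1.06, SE 0.15, limma adjusted p = 0.00852). Kdr, the VEGF receptor that can work with Nrp1 and with plexin-A1, fell further. It measured 4.97, 4.85 and 4.79 in KO, against 7.33, 7.38 and 7.60 in WT (difference -2.57, SE 0.12, adjusted p = 4.81e-05). In both genes each KO array lay below each WT array.

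Of 34 measured genes that act below the plexins, 1 rose and 1 fell (median 0.02). This is near the shares of all genes, 2.3% and 2.08%, so nothing is read from the count. Mras, a Ras-type GTPase that plexins can inactivate, fell by 2.01, with 6.0, 5.62 and 5.30 in KO, against 7.92, 7.67 and 7.38 in WT (SE 0.21, limma adjusted p = 0.00231). Mical1, an actin-oxidising enzyme that binds plexin-A proteins, rose by 0.64 (SE 0.13, limma adjusted p = 0.0411). That call did not hold with a variance trend and without KO replicate 2 or 3 or any one of the WT arrays (highest adjusted p 0.143).

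Among 7 proteases that cut semaphorins, 1 rose and 0 fell, beside 2.3% and 2.08% of all genes. Furin, which processes class 3 semaphorins, measured 7.99, 8.18 and 8.38 in KO, against 7.63, 7.15 and 7.32 in WT (difference 0.81, SE 0.16, limma adjusted p = 0.0345). The call was lost without KO replicate 2 or 3 or WT replicate 2 or 3 (highest adjusted p 0.127).

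The other guidance systems held no gene past the threshold, beside 4.38% of all genes. Lists of this size would hold few calls at that share, so nothing is read from this. Of 21 ephrin and Eph receptor genes 0 rose and 0 fell by limma, with 2 at an unadjusted p under 0.05 and differences of -0.83 to 0.30. Of 20 netrin, Slit and related genes 0 rose and 0 fell, with 0 at an unadjusted p under 0.05 and differences of -0.21 to 0.13. This list holds the netrin genes, whose products Dscam can bind.

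**Figure D4:**
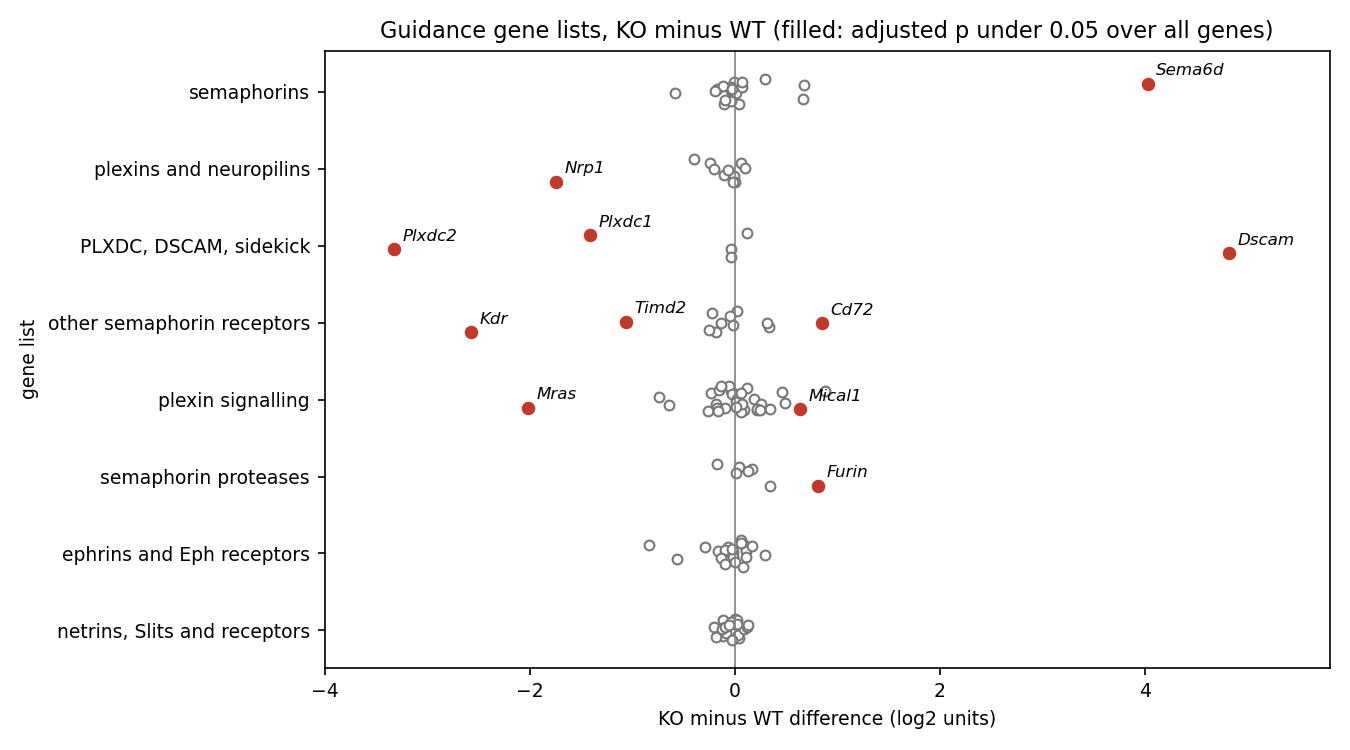
KO minus WT difference in log2 units (horizontal axis) of every measured gene in 8 guidance gene lists (rows), jittered within each row. Named red points passed an adjusted p of 0.05 over all genes. The ephrin and netrin rows hold none.

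The genes whose pattern over the 6 arrays was most like that of a member were sought among 1534 genes with an SD of at least 0.5. These correlations mostly reflect the split between the same 3 KO and 3 WT arrays and are given as a description. Sema6d was most like Gpr174 and Itgax (Pearson r = 0.997 each), Gpr174 being a G protein-coupled receptor and Itgax encoding the integrin CD11c. Nrp1 was most like Cd209a and Cd300c2 (r = 0.997 each), both from families whose similar members can share signal. Cd209a measured 6.76, 5.03 and 5.0 in KO, against 9.80, 8.98 and 9.19 in WT. Its highest KO array was replicate 1, as for Nrp1, which the choice by correlation favours.

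Plxdc2 was most like Rexo2, an oligoribonuclease gene, and Enpp5 (r = 0.999 each). Dscam was most like the probe set listed as Kcnma1 and Clnk, an immune adaptor gene (r = 0.999 each). The Kcnma1 probe set shares no RefSeq transcript with its listed gene, so its name is doubtful.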

How the data were processed

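The deposited table holds 34760 probe sets on 6 arrays, and its deposited values were taken as log2 expression levels from their range. How the authors corrected background, summarised and normalized them is not stated in the labels or the table. Array medians are alike, so a shift shared by all transcripts would not show. Detection calls were not used. With 3 arrays a group, their number limits the precision.

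Gene symbols are those of the platform's annotation. Of the probe sets, 21640 had 1 symbol, 1321 several and 11799 none. Only those with 1 symbol were used, the brightest by 6-array mean standing for a gene, which gave 19937 genes. KO was compared with WT by limma 3.58.1 (lmFit and eBayes, R 4.3.3) over all genes without covariates, two-sided, with Benjamini-Hochberg adjustment and a threshold of 0.05. Differences are KO minus WT. The fit was tested on simulated data.

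The 10 genes, the gene lists and the alternatives were chosen with earlier results of these data known. Named beside the 10 were family genes past the threshold or, up to 6 in all, with the largest differences, up to 4 genes past it in each other guidance list, and the 2 genes of highest Pearson r with each member, printed for the 4 members whose own SD over the 6 arrays was at least 0.5. Promoters are those of RefSeq in GRCm38.p6, and gene positions are from the same build. Alternatives were quantile normalization, median centring, bright genes alone, the mean of probe sets, RefSeq-matched probe sets, a variance trend, array weights (statmod 1.5.0), the replicate block and leaving out arrays. Figures were drawn with matplotlib 3.10.9.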

Additional observations from a re-analysis of the deposited data

How the results depend on the processing

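Of 149 recomputed differences of the 10 genes under 15 alternatives, 148 moved by less than 1 SD. The 1 that moved further was Sema4d, at 0.31 with the mean of its probe sets. Much of this count was fixed beforehand. The variance trend, the replicate block, RefSeq-matched probe sets and bright genes alone left each difference as it was. The mean of probe sets could change Sema4d alone, and leaving out 1 array of 3 cannot move a difference by 1 SD. The count therefore says little about stability. Plxdc2 has no value among bright genes alone, being below the median level. Sema6d, Nrp1, Plxdc2 and Dscam passed the threshold under every alternative that gave them a value. Genes past the threshold numbered 874, against 1363 with array weights, 1362 under the replicate block and 1382 without both arrays numbered 1, and 451 to 1499 when single arrays were left out. Members past it numbered 4, and 4 to 7 without single arrays. Semaphorins past it numbered 1, against 3 with array weights, 2 with the replicate block, 3 without both arrays numbered 1, and 1 to 3 without single arrays. Plexins and neuropilins numbered 1, and 1 to 2 without single arrays. The other guidance lists together, Plxdc2 and Dscam included, held 9 calls, and 5 to 11 without single arrays. The causes of these moves were not tested. The labels do not say whether the numbers pair the samples, and the correlations do not settle it. Deviations of same-numbered KO and WT arrays correlated at 0.38, 0.10 and 0.25 across genes. KO replicate 1 correlated at -0.10 and -0.31 with WT replicates 2 and 3, while KO replicate 2 was more like WT replicate 3 (0.20). The sign of Plxna1 turned without KO replicate 2, KO replicate 3 or WT replicate 3 (0.02, 0.01 and 0.05).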
